A study of Danio rerio with 18 samples.

Results

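Expression of 9 genes for glycolytic enzymes was compared over 6 groups of cells sorted from zebrafish embryos. The genes were aldoaa, aldocb, gapdh, pgk1, pgam2, eno1a, eno3, pkma and ldha. They were chosen by name, with earlier results of these data known. Every probe set with 1 gene symbol that was one of these names was taken. This gave 11 probe sets of the 15502 on the array that were not controls, and 9 genes of 8793 gene symbols. The genes aldocb and pgk1 each had 2 probe sets and the other genes had 1.

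Glycolysis splits glucose into pyruvate, with a net yield of ATP and NADH, and lactate dehydrogenase turns pyruvate into lactate when NADH has to be oxidised without oxygen. Vertebrates carry several genes for most of its steps. In mammals ALDOA, ENO3 and PGAM2 are the forms of adult muscle, ALDOC and ENO2 are forms of the brain, and many zebrafish genes have a further pair of copies marked a and b. Skeletal muscle depends on glycolysis for fast contraction, and the embryonic nervous system uses glucose for both energy and growth.

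Embryos at 14 to 16 somites, kept at 28 °C, were separated by fluorescence into GFP-positive and GFP-negative cells. A wild-type line with a reporter for miR-206, a microRNA of muscle, gave muscle cells and the rest of the embryo. A wild-type line with a reporter for miR-124, a microRNA of neurons, gave cells of the central nervous system (CNS) and the rest, and a Dicer-mutant line with the same reporter, marked MZ in the labels, gave mutant CNS cells and the mutant rest. Dicer cuts microRNAs out of their precursors, and the labels name no other allele, strain or transgene. Each group held 3 arrays labelled as biological replicates. The GFP-negative cells differ in makeup between the lines, since those of the miR-206 line still hold the CNS and those of the miR-124 lines still hold muscle.

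All arrays had the same 2% trimmed mean (150.03 to 150.04), while their median intensities ran from 30.9 to 44.7. Centring on the medians moved the share of higher calls, as given in the part on processing. Arrays of one group correlated at r = 0.959 to 0.989. The sorted cells carried the markers of their labels. All 20 muscle marker genes tested were higher in muscle cells than in their rest, and 21 and 22 of 23 CNS marker genes were higher in wild-type and mutant CNS cells than in theirs. The summed intensity of 21 muscle markers was 33765 to 42169 in muscle cells, 2235 to 3190 in the rest of the miR-206 line and 12212 to 15533 in the rest of the miR-124 line. It was 7483 to 10652 in the mutant rest, and 475 to 865 in both groups of CNS cells. Markers of red blood cells, notochord, and yolk and endoderm were lower in muscle cells than in their rest for 11 of 11, 4 of 4 and 5 of 5 genes tested, and those of epidermis for 11 of 12. In CNS cells, red blood cell markers were lower than in the rest for 11 of 11 genes in both lines. Epidermal markers were lower there for 12 of 12 in the wild type and 3 of 12 in the mutant. No marker gene was at 0 on all 18 arrays. In pools of sorted cells, fewer cells of a type and less RNA per cell cannot be told apart.

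Probe sets were tested where their intensity exceeded the 40th percentile of the array in 3 or more of the 18 arrays. Of the 11 probe sets, 10 passed. The dimmer pgk1 probe set lay between 0.3 and 12.1 on all arrays and was not tested. The gene pgam2 passed only through the 3 muscle arrays, so a difference for muscle was built into its passing. The dimmer aldocb probe set passed only through arrays of CNS cells and replicate 1 of the miR-206 rest. Higher values in CNS cells and lower values in muscle were thus partly built into its passing. Tests ran on log2(intensity + 16), and a fold change on this scale understates the change of a dim gene. Intensities of different probe sets are not comparable, so each gene is compared only with itself.

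**Figure D1:**
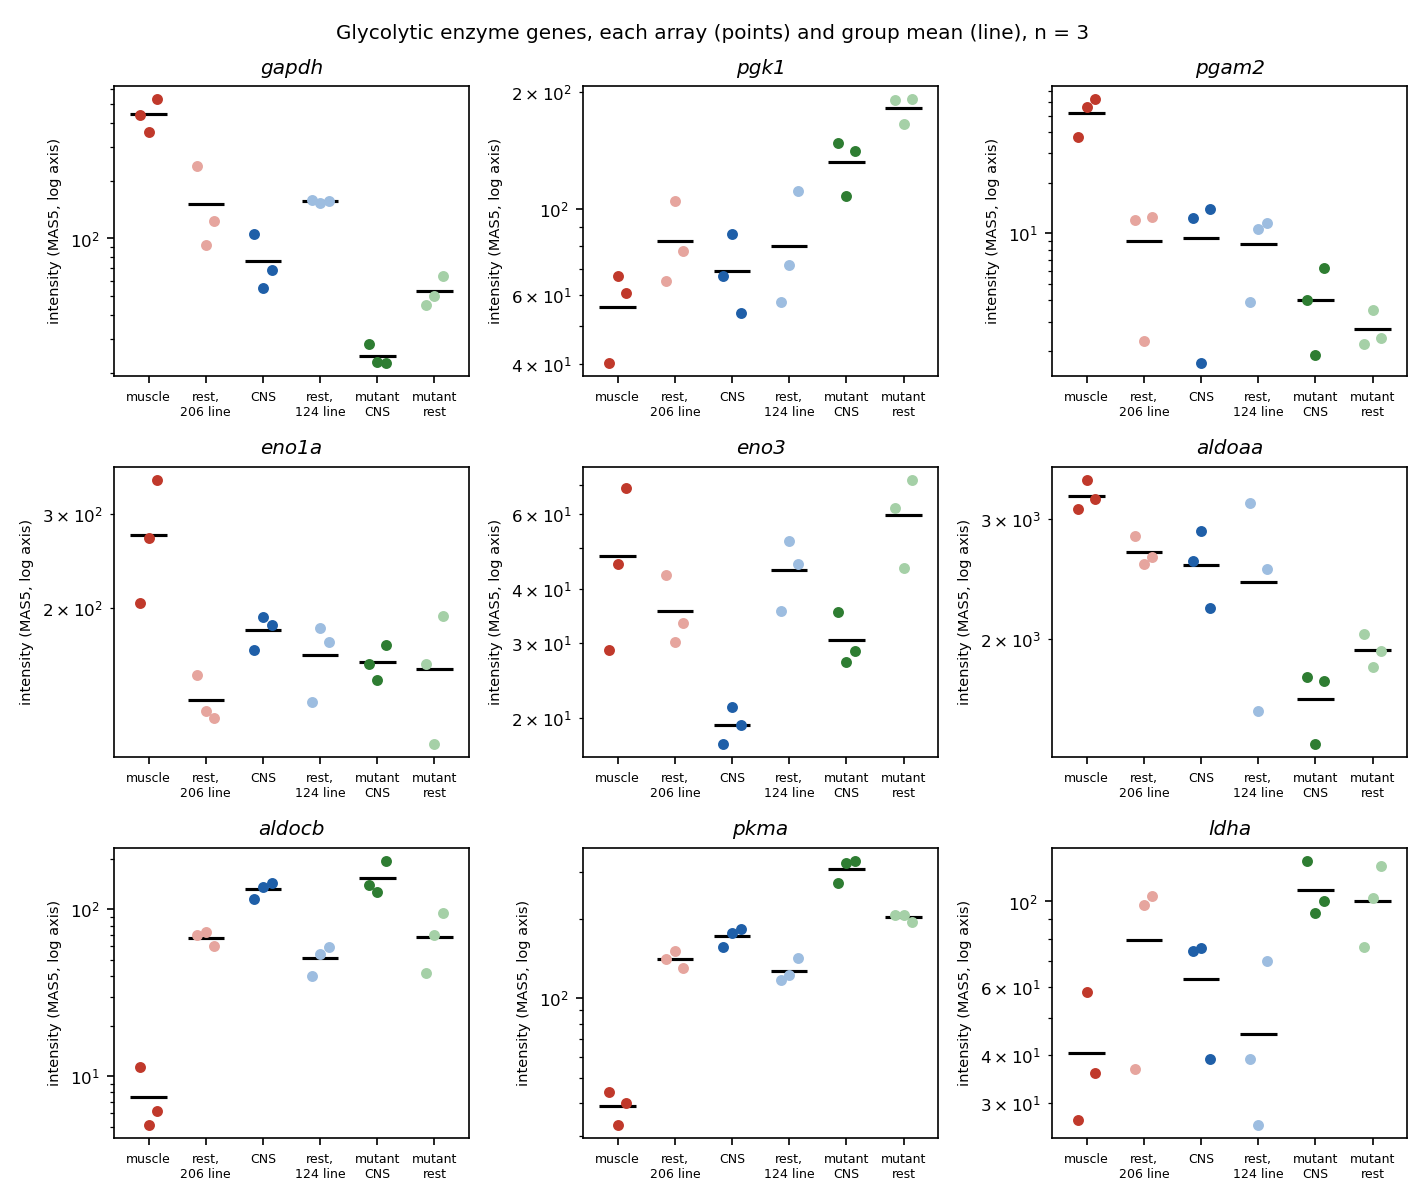
Intensity of the 9 genes on each of the 18 arrays (points, log axis) by sorted group, with the group mean as a line; aldocb and pgk1 are shown by their brighter probe set. The muscle arrays are highest for gapdh, eno1a and pgam2, and lowest for aldocb and pkma. The 6 mutant arrays are lowest for gapdh except that 1 wild-type CNS array (55.3) falls among the mutant rest.

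Muscle cells were first compared with the rest of the same embryos. The genes gapdh and eno1a were higher in muscle cells, and aldocb and pkma were lower. With pgam2 left out, since its filter fixed its direction here, that is 4 of 9 probe sets, against 34.3% of all 10704 probe sets. They were 2 higher, against 12.5% of all, and 2 lower, against 21.8%. The arrays of the groups did not overlap for these 4 and for aldoaa, 5 of 9, against 41.4% of all. The median difference of the 9 was -0.45 (log2), beside -0.05 over all probe sets.

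For gapdh, the enzyme that oxidises glyceraldehyde 3-phosphate, the muscle arrays read 441, 356 and 529.5 and those of the rest 237, 92.7 and 123. The lowest muscle array stood above the highest array of the rest. The means were 442 ± 86.8 and 151 ± 76.3 (SD, n = 3), a log2 difference of 1.53 (SE 0.24, adjusted p = 3.48e-05), or 2.90-fold. The enolase gene eno1a read 204, 271 and 348 in muscle and 149.7, 128 and 124 in the rest. It was 1.90-fold higher in muscle cells (log2 0.93, SE 0.19, adjusted p = 0.000526).

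The mutase gene pgam2, which moves the phosphate of 3-phosphoglycerate and is the muscle form in mammals, read 37.1, 56.6 and 62.6 in muscle cells. On the 15 other arrays it lay between 1.7 and 13.9. The muscle arrays were at the 53.2 to 60.5 percentile of their arrays and the others at or below 30.8. As a description, the log2 difference against the rest was 1.46, and it was 2.63 with a pseudocount of 1 and 0.67 with one of 64. Without any 1 of the 3 muscle arrays the probe set no longer passed the filter, so no test of muscle is given for it.

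The aldolase gene aldocb, whose mammalian counterpart is the brain form, went the other way. Its brighter probe set read 11.3, 5.1 and 6.2 in muscle cells and 70.2, 72.9 and 60.0 in the rest. All 3 muscle arrays were at the 15.5 to 30.4 percentile of their arrays. The log2 difference was -1.84 (SE 0.20, adjusted p = 3.87e-07), which became -3.07 with a pseudocount of 1 and -0.88 with one of 64. Its dimmer probe set had a mean of 9.80 in muscle and 19.0 in the rest, with overlapping arrays, and its difference of -0.45 gave an adjusted p of 0.0677. With a block for the replicate number, which paired the fractions of this line, that p was 0.0359, and it was 0.0483 with a pseudocount of 1 and 0.0496 with array weights.

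The pyruvate kinase gene pkma, for the last step to pyruvate, read 44.1, 33.1 and 40 in muscle cells and 140.5, 151 and 130.0 in the rest. It was 2.85-fold lower in muscle (log2 -1.51, SE 0.13, adjusted p = 1.20e-08). This was the smallest adjusted p of the 10 probe sets in the comparison. Its value was -0.99 with a pseudocount of 64.

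The other genes did not pass the test. The aldolase gene aldoaa was bright in every group and read 3102, 3424 and 3217 in muscle and 2836, 2574 and 2638 in the rest. The arrays did not overlap, but the log2 difference of 0.27 had an adjusted p of 0.25. With arrays centred on their medians it was 0.47 (adjusted p = 0.0467). The enolase gene eno3, the muscle form in mammals, read 28.9, 45.8 and 68.9 in muscle and 43.3, 30.2 and 33.3 in the rest (log2 0.27, adjusted p = 0.32).

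Lactate dehydrogenase ldha read 27.1, 58.1 and 35.9 in muscle and 36.8, 98.1 and 103 in the rest, and the groups overlapped. Its difference of -0.70 (SE 0.30) had an adjusted p of 0.0793. It was -1.09 (adjusted p = 0.005) without replicate 1 of the rest, -0.92 (0.0396) without replicate 2 of muscle, and -0.95 (0.00612) with array weights. For pgk1, phosphoglycerate kinase, the means were 56.0 in muscle and 82.6 in the rest (log2 -0.45, adjusted p = 0.102), and without replicate 1 of the rest the adjusted p was 0.0497. For the dimmer aldocb probe set the adjusted p was 0.0105 without replicate 1 of muscle and 0.041 without replicate 2 of the rest.

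**Figure D2:**
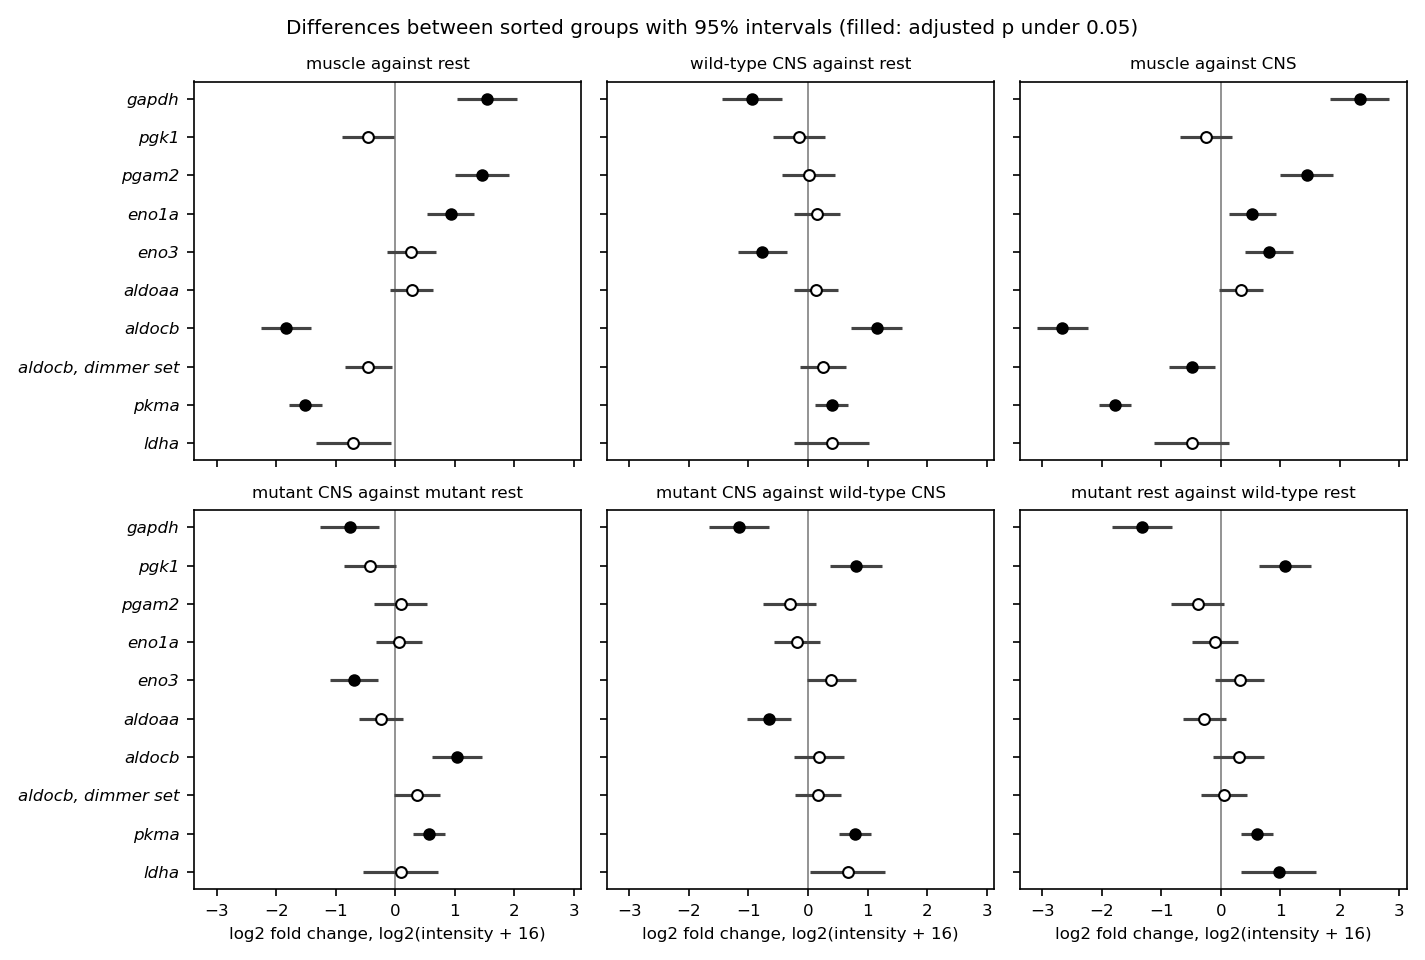
Log2 fold change of the 10 tested probe sets in 6 comparisons, on log2(intensity + 16), with 95% intervals from the fit (filled points have an adjusted p under 0.05, which for pgam2 in the muscle comparisons is no test). Against their rest, muscle cells show gapdh at 1.53 and aldocb at -1.84, and wild-type CNS cells show gapdh at -0.94 and aldocb at 1.15.

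In wild-type CNS cells, gapdh and eno3 were lower than in the rest of the same embryos, and aldocb and pkma were higher. That is 4 of 10 probe sets, against 31.6% of all probe sets, with 2 higher (14.2% of all) and 2 lower (17.4%). The median of the 10 was 0.14 (log2), beside 0.03 over all. The arrays of the groups did not overlap for these 4 of 10, against 41.9% of all.

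For gapdh the CNS arrays read 105, 55.3 and 68.4 and the rest 158.5, 153 and 157, so the rest was tight (156 ± 2.64, SD, n = 3) and the CNS cells were spread (76.4 ± 26.0). The log2 difference was -0.94 (SE 0.24, adjusted p = 0.00492). The gene eno3 read 17.4, 21.2 and 19.3 in CNS cells and 35.7, 51.8 and 45.9 in the rest, a log2 difference of -0.77 (SE 0.20, adjusted p = 0.00459). The CNS arrays were the lowest of the 18 for eno3.

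The brighter aldocb probe set read 116, 136 and 145 in CNS cells and 39.9, 53.8 and 59.4 in the rest. It was 2.22-fold higher in CNS cells (log2 1.15, SE 0.20, adjusted p = 0.000164). The gene pkma read 157, 177 and 183 against 118, 122.5 and 142, and its difference of 0.40 had an adjusted p of 0.0257. This pkma call was lost (adjusted p 0.0616 to 0.0896) without replicate 2 or 3 of CNS cells or replicate 1 or 2 of the rest. It was also lost (0.08) when only these groups entered the fit.

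The genes eno1a, aldoaa, pgam2, pgk1 and ldha did not pass in this comparison. Their log2 differences were 0.15, 0.13, 0.01, -0.15 and 0.39, with adjusted p-values of 0.358 or more. The dimmer aldocb probe set had a difference of 0.25 (adjusted p = 0.344).

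The Dicer-mutant line was sorted with the same reporter, and its CNS cells differed from its rest in the same 4 genes and directions. That is 4 of 10 probe sets, against 14.9% of all, with 2 higher (6.32% of all) and 2 lower (8.57%). The groups did not overlap for 7 of 10, against 37.7% of all. The mutant CNS cells were higher for aldocb (log2 1.03, SE 0.20, adjusted p = 0.000954) and pkma (0.57, SE 0.13, adjusted p = 0.00393). They were lower for gapdh (-0.77, SE 0.24, adjusted p = 0.034) and eno3 (-0.69, SE 0.20, adjusted p = 0.0177). The aldocb arrays read 139.9, 128 and 194.5 in mutant CNS cells and 41.8, 69.8 and 94.7 in the mutant rest, and pkma read 272, 324 and 331 against 206, 207 and 195.

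For gapdh the mutant CNS arrays read 28.2, 22.7 and 22.5 and the mutant rest 45.3, 50.2 and 64.2. These do not overlap, yet without any 1 of the 6 arrays the adjusted p lay between 0.0514 and 0.15. It was also above the threshold with a pseudocount of 64 (0.156), with no filter (0.0524), with median centring (0.0657) and with quantile normalization (0.118). For eno3 the arrays read 35.5, 27 and 28.7 against 62.1, 45.0 and 72.0. Its call was lost (adjusted p 0.0641 to 0.106) without replicate 2 or 3 of mutant CNS cells or replicate 1 or 3 of the mutant rest, and was 0.0515 with quantile normalization. The genes pgk1 (-0.43, adjusted p = 0.213), aldoaa (-0.24, adjusted p = 0.445) and the dimmer aldocb probe set (0.36, adjusted p = 0.246) did not overlap between these groups but did not pass. With only these groups in the fit, pgk1 had an adjusted p of 0.041.

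Whether the difference between CNS cells and rest depended on the Dicer mutation was tested as an interaction. None of the 10 probe sets passed limma's test, none had an unadjusted p under 0.05, and 2.28% of all probe sets passed. The largest difference of differences was -0.38 for aldoaa (95% interval -0.90 to 0.14, adjusted p = 0.57). For gapdh it was 0.17 (-0.54 to 0.88), for aldocb -0.12 (-0.72 to 0.48) and for pkma 0.17 (-0.21 to 0.56). These intervals are wide, and the lines are not shown to be alike.

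Muscle and CNS cells of the wild-type lines were then set against each other. Muscle cells were higher for gapdh, eno3 and eno1a, and lower for both aldocb probe sets and for pkma. With pgam2 left out, that is 6 of 9 probe sets, against 43.2% of all, with 3 higher (17.7% of all) and 3 lower (25.5%). The lower ones include both probe sets of aldocb, and the direction of the dimmer one was partly built into its passing. The groups did not overlap for 6 of 9, against 55.5% of all. This comparison shares its arrays with both comparisons against the rest.

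The gapdh difference was 2.33 (SE 0.24, adjusted p = 1.10e-07), or 5.02-fold. The brighter aldocb probe set was 6.31-fold lower in muscle (log2 -2.66, SE 0.20, adjusted p = 1.31e-09), and pkma was 3.43-fold lower (log2 -1.78, SE 0.13, adjusted p = 7.06e-10). The gene eno3 was higher by 0.81 (SE 0.20, adjusted p = 0.00221), with the lowest muscle array at 28.9 and the highest CNS array at 21.2.

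The difference of 0.53 for eno1a (adjusted p = 0.028) lost its call without replicate 2 or 3 of muscle or replicate 1 or 3 of CNS cells (adjusted p 0.0549 to 0.172). That of the dimmer aldocb probe set (-0.49, adjusted p = 0.0401) lost it without replicate 2 or 3 of either group (0.113 to 0.183), and its arrays overlapped. It was also lost with median centring (0.161), quantile normalization (0.1), a pseudocount of 64 (0.0558) and only these groups in the fit (0.0694). The genes aldoaa (0.34, adjusted p = 0.123), pgk1 (-0.24, 0.369) and ldha (-0.49, 0.207) did not pass. For aldoaa the adjusted p was 0.0434 with median centring and 0.0273 with only these groups in the fit.

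The Dicer mutation was examined in CNS cells and in the rest of the miR-124 lines separately. In CNS cells gapdh and aldoaa were lower in the mutant, and pgk1 and pkma were higher. That is 4 of 10 probe sets, against 33.3% of all, with 2 higher (18.1% of all) and 2 lower (15.2%). The groups did not overlap for 6 of 10, against 54.9% of all. In the rest gapdh was lower in the mutant, and pgk1, pkma and ldha were higher. That is again 4 of 10, against 33.9% of all, with 3 higher (17.0% of all) and 1 lower (16.8%). The groups did not overlap for 5 of 10, against 45.3% of all. These include pgam2, which was dim in both groups (2.2 to 3.5 in the mutant and 3.9 to 11.6 in the wild type). Without it, that is 4 of 9. Genotype and line cannot be told apart, since each genotype had 1 miR-124 line.

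The difference between 3' and middle control probe sets, a possible sign of RNA quality, moved with genotype. It was computed in place of the 3' to 5' difference that had been planned. The log2 difference between the 3' and middle control probe sets for GAPDH was 1.30 to 1.56 in mutant and 0.92 to 1.11 in wild-type CNS cells, and 1.21 to 1.28 and 0.61 to 0.99 in the rest. For actin it was -0.02 to 0.80 and 0.88 to 1.81 in CNS cells, and 1.23 to 1.41 and 1.60 to 3.13 in the rest. The groups did not overlap, and the GAPDH difference was higher in the mutant while the actin difference was lower. The GAPDH difference was 0.12 to 0.34 in muscle cells, where its 3' control had a mean of 23.8, against 733 in mutant CNS cells. The middle control had a mean of 18.1 in muscle cells. The 3' level is itself a term of the difference. The pseudocount of the tests was used here too, and it shrinks the difference where both controls are dim. A link between difference and level is thus partly built in, and nothing is concluded from it. In CNS cells the actin controls were dim, with means in mutant and wild type of 33.8 and 63.9 at the 3' end. Those of the middle were 19.2 and 18.1. The actin control for the 5' end had means of 15.6 and 22.9 there. In muscle cells its mean was 37.8, beside 4930 for the 3' end. RNA quality and the level of these transcripts cannot be told apart here. Their part in the differences between mutant and wild type was not tested.

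The fall in gapdh was 2.23-fold in CNS cells (log2 -1.16, SE 0.24, adjusted p = 0.00105). It was 2.51-fold in the rest (log2 -1.32, SE 0.24, adjusted p = 0.000414), where wild-type arrays read 153 to 158.5 and mutant arrays 45.3 to 64.2. Some muscle markers were also lower in the mutant rest, with 5 of 20 genes past the test and a summed intensity of 7483 to 10652 against 12212 to 15533. Some markers of other cell types were lower there too, with 6 of 12 for epidermis, 3 of 5 for yolk and endoderm, 3 of 11 for red blood cells and 2 of 4 for notochord, where 1 was higher. The red blood cell markers summed to 2673 to 4720 in the mutant rest and 8782 to 10190 in the wild-type rest. Of 23 CNS markers, 2 were higher and 1 was lower. Beside these small counts, 16.8% of all probe sets were lower in this comparison and 17.0% were higher, and no list was tested against those shares. The part of these cells in the gapdh, pgk1, pkma and ldha differences of the rest was not tested. In CNS cells the muscle markers summed to 534 to 865 in the mutant and 475 to 822 in the wild type. The part of muscle cells in the gapdh difference of CNS cells was not tested either.

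The kinase gene pgk1, which makes the first ATP of the pathway, read 148, 108 and 140.5 in mutant CNS cells and 67.1, 86.0 and 54.1 in wild-type CNS cells. In the rest it read 189.9, 165 and 191 in the mutant and 57.6, 71.6 and 111 in the wild type. All 6 mutant arrays were above all 12 wild-type arrays except replicate 3 of the wild-type rest, which exceeded the lowest mutant CNS array (107.8). The log2 differences were 0.81 in CNS cells (SE 0.21, adjusted p = 0.00579) and 1.08 in the rest (SE 0.21, adjusted p = 0.000716).

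The gene pkma was higher in the mutant by 0.78 in CNS cells (SE 0.13, adjusted p = 0.000147) and by 0.61 in the rest (SE 0.13, adjusted p = 0.00159). Each mutant array exceeded every wild-type array of its fraction. Its order over the groups was mutant CNS (309), mutant rest (202.5), wild-type CNS (172), rest of the miR-206 line (141), rest of the miR-124 line (127) and muscle (39.1). Only the wild-type rests overlapped as neighbours in that order.

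The subunit gene ldha read 127, 93.5 and 100.1 in mutant CNS cells and 74.3, 75.6 and 39.1 in wild-type CNS cells. These did not overlap, but the difference of 0.67 (SE 0.30) had an adjusted p of 0.0957. It was 0.0196 with array weights and 0.0132 with only these groups in the fit. In the rest the ldha difference was 0.97 (SE 0.30, adjusted p = 0.0181), from 39.1, 26.3 and 70.2 in the wild type to 76.1, 102 and 123 in the mutant. That call was lost (adjusted p 0.0504 to 0.0971) without replicate 1 or 2 of the wild-type rest or replicate 2 or 3 of the mutant rest.

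For aldoaa the mutant CNS arrays read 1757, 1398 and 1733 and the wild-type CNS arrays 2603, 2883 and 2218. The difference was -0.65 (SE 0.18, adjusted p = 0.00769), and with quantile normalization it was -0.43 (adjusted p = 0.0629). In the rest its difference was -0.27 (adjusted p = 0.236). There the wild-type arrays read 3167, 1563 and 2536, and without replicate 2, the low one, the difference was -0.56 (adjusted p = 0.00507). With array weights it was -0.45 (adjusted p = 0.0303).

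The genes eno1a, eno3, pgam2 and aldocb did not pass in either fraction. The brighter aldocb probe set differed by 0.18 in CNS cells (95% interval -0.24 to 0.61) and by 0.30 in the rest (-0.12 to 0.72). Without replicate 1 of the mutant rest the latter was 0.55 (adjusted p = 0.0401). The eno3 difference of 0.39 in CNS cells (adjusted p = 0.129) had an adjusted p of 0.0326 with only these groups in the fit.

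Epidermal markers moved with the mutation in CNS cells. Of 12 tested, 8 were higher in mutant than in wild-type CNS cells, against 18.1% of all probe sets. The summed intensity of 13 was 3684 to 6251 against 878.5 to 1604. No gene of that list was at 0 on all 18 arrays. In the same comparison 6 of 23 CNS markers were lower in the mutant, against 15.2% of all probe sets, and none was higher. In the rest the epidermal list moved the other way, with 6 of 12 lower in the mutant, against 16.8% of all probe sets, and a median of -0.56. The part of these lists in the differences between mutant and wild-type CNS cells was not tested.

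The rests of the wild-type lines differed in their content of muscle and CNS, as the marker sums show. None of the 10 probe sets passed limma's test between them and none had an unadjusted p under 0.05, while 5.82% of all probe sets passed. Their arrays did not overlap for 1 of 10, the brighter aldocb probe set, against 17.3% of all. For gapdh the means were 151 ± 76.3 and 156 ± 2.64 (SD, n = 3) and the difference -0.14 (95% interval -0.64 to 0.36). The smallest p was that of ldha, with a difference of 0.61 (95% interval -0.02 to 1.24, unadjusted p = 0.0564, adjusted p = 0.267). All 18 muscle markers that differed between these groups, of 20 tested, were lower in the rest of the miR-206 line.

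**Figure D3:**
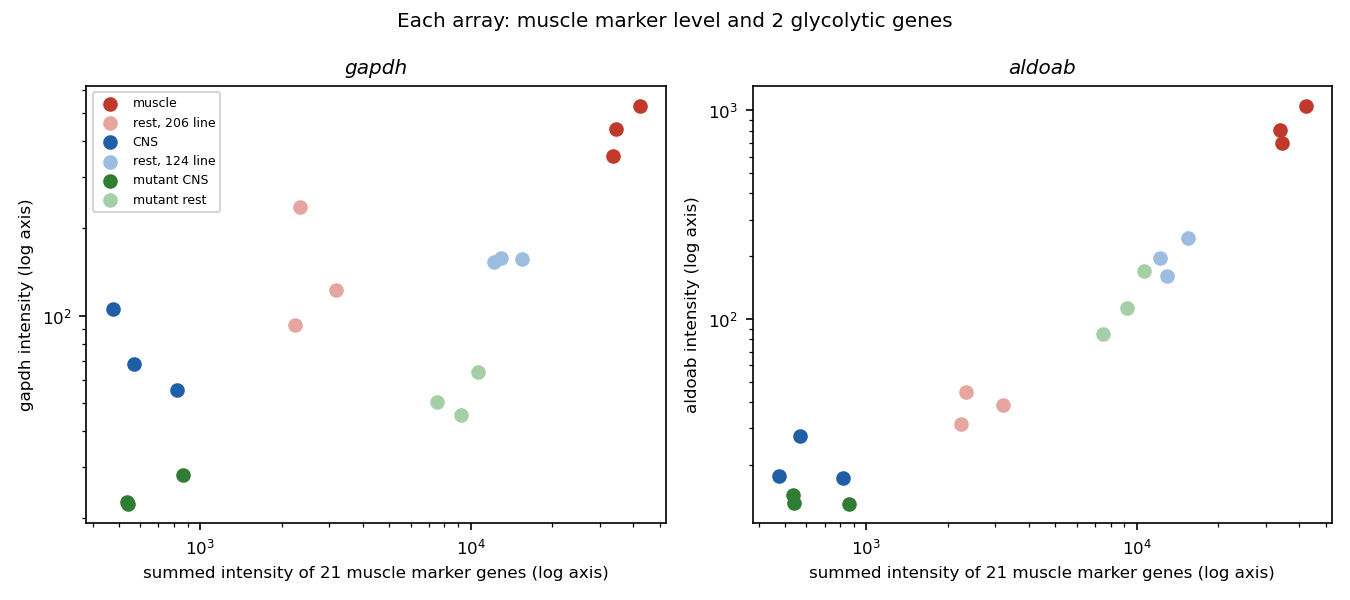
Intensity of gapdh and of aldoab on each of the 18 arrays against the summed intensity of 21 muscle marker genes on the same array, both on log axes and coloured by sorted group. The rests of the wild-type lines lie far apart on the marker axis, at 2235 to 3190 and 12212 to 15533. They have gapdh means of 151 and 156, and aldoab means of 38.4 and 201. The gapdh mean of 151 comes from spread arrays (237, 92.7 and 123), and the rests also differ in CNS markers.

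Other genes of the same steps were examined as a list of 28 enzymes and isoforms of glycolysis, of which 19 were on the array and 13 passed the filter. In muscle cells against their rest, 1 was higher and 3 were lower, 4 of 13 against 34.3% of all probe sets, with a median difference of -0.22 beside -0.05. In wild-type CNS cells 4 were higher and 2 lower (31.6% of all called), and in mutant CNS cells none was higher and 2 were lower (14.9% of all). Between muscle and CNS cells 1 was higher in muscle and 6 were lower (43.2% of all). Between mutant and wild type 2 were higher and 3 lower in CNS cells (33.3% of all), and 3 were higher and 2 lower in the rest (33.9% of all). These counts of 13 were near the share of all probe sets in the muscle, mutant CNS and genotype comparisons, and say nothing particular of the list.

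At the aldolase step, the gene higher in muscle cells was aldoab. It read 698, 804 and 1050.5 in muscle cells and 45.0, 31.5 and 38.6 in their rest, a log2 difference of 3.98 (SE 0.20, adjusted p = 8.43e-12). In CNS cells it was lower than in the rest, by 2.55 in the wild type (log2 -2.55, adjusted p = 8.12e-09) and by 2.18 in the mutant (log2 -2.18, adjusted p = 1.17e-07). Its copy aldoaa, described above, did not pass in any of these comparisons. The rest of the miR-206 line had less aldoab than the rest of the miR-124 line (log2 -1.98, SE 0.20, adjusted p = 3.04e-06). In the mutant rest aldoab was lower than in the wild-type rest (-0.67, adjusted p = 0.0158), a call lost without replicate 3 of the wild-type rest (0.0704) or replicate 2 of the mutant rest (0.108), with array weights (0.0517) and with only these groups in the fit (0.0527).

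At the next step gapdhs, whose mammalian counterpart is a form of sperm, ran opposite to gapdh. It read 24.6, 29.3 and 18 in muscle cells and 172, 154 and 134 in their rest (log2 -2.09, SE 0.22, adjusted p = 2.47e-07). Wild-type CNS cells read 305, 351 and 371 against 131.5, 113 and 264 in their rest (log2 1.03, SE 0.22, adjusted p = 0.0012). The mutant was higher than the wild type in CNS cells (log2 1.03, SE 0.22, adjusted p = 0.00152), with 757, 555 and 862. It was also higher in the rest (log2 1.52, SE 0.22, adjusted p = 6.04e-05), with 516, 424 and 519. In mutant CNS cells against their rest the difference was 0.54 (adjusted p = 0.123). With a block for the replicate number the adjusted p was 0.0397.

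Over the 18 arrays the log2 values of gapdh and gapdhs correlated at r = -0.947, as a description of arrays that share 6 groups and a common scaling. Of the other genes of the set, pkma correlated with gapdh at -0.949 and pgam2 at 0.832. Outside muscle pgam2 was dim (1.7 to 13.9), and it passed the filter only through the muscle arrays, where gapdh was also highest. The aldolase genes aldoab and aldocb correlated at -0.920.

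**Figure D4:**
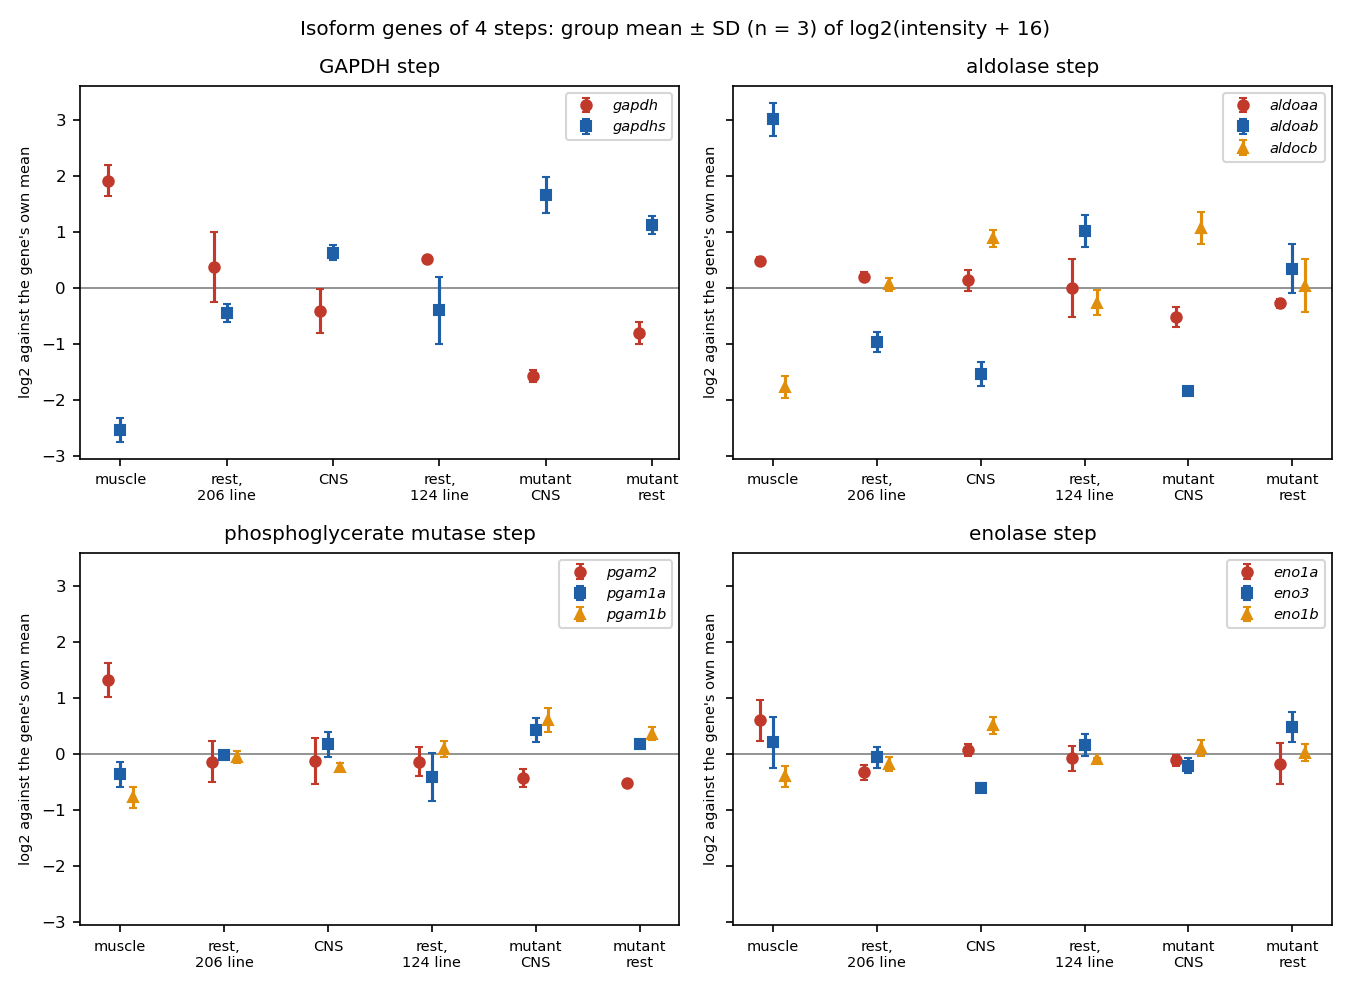
Group means with SD (n = 3) of log2(intensity + 16), each gene set against its own mean over the 6 groups, for the genes of 4 enzyme steps. In muscle cells gapdh and gapdhs, and aldoab and aldocb, lie on opposite sides of 0, while the enolase genes stay within a narrower range.

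At the mutase step pgam1b was lower in muscle cells than in their rest (log2 -0.72, SE 0.15, adjusted p = 0.000568). It was higher in mutant than in wild-type CNS cells by 0.83 (adjusted p = 0.00022). At the enolase step eno1b was higher in wild-type CNS cells than in their rest (0.60, SE 0.14, adjusted p = 0.00285) and lower in muscle than in CNS cells (-0.91, adjusted p = 2.92e-05). At the first step, hexokinase, hk1 was lower in the mutant by the same amount in CNS cells (-0.87, SE 0.12, adjusted p = 1.77e-05) and in the rest (-0.87, adjusted p = 2.27e-05). The gene hk2 was lower in muscle cells than in their rest (-0.83, SE 0.17, adjusted p = 0.000478). The triose phosphate isomerase gene tpi1a was higher in the mutant than in the wild-type rest (0.97, SE 0.19, adjusted p = 0.000803).

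**Figure D5:**
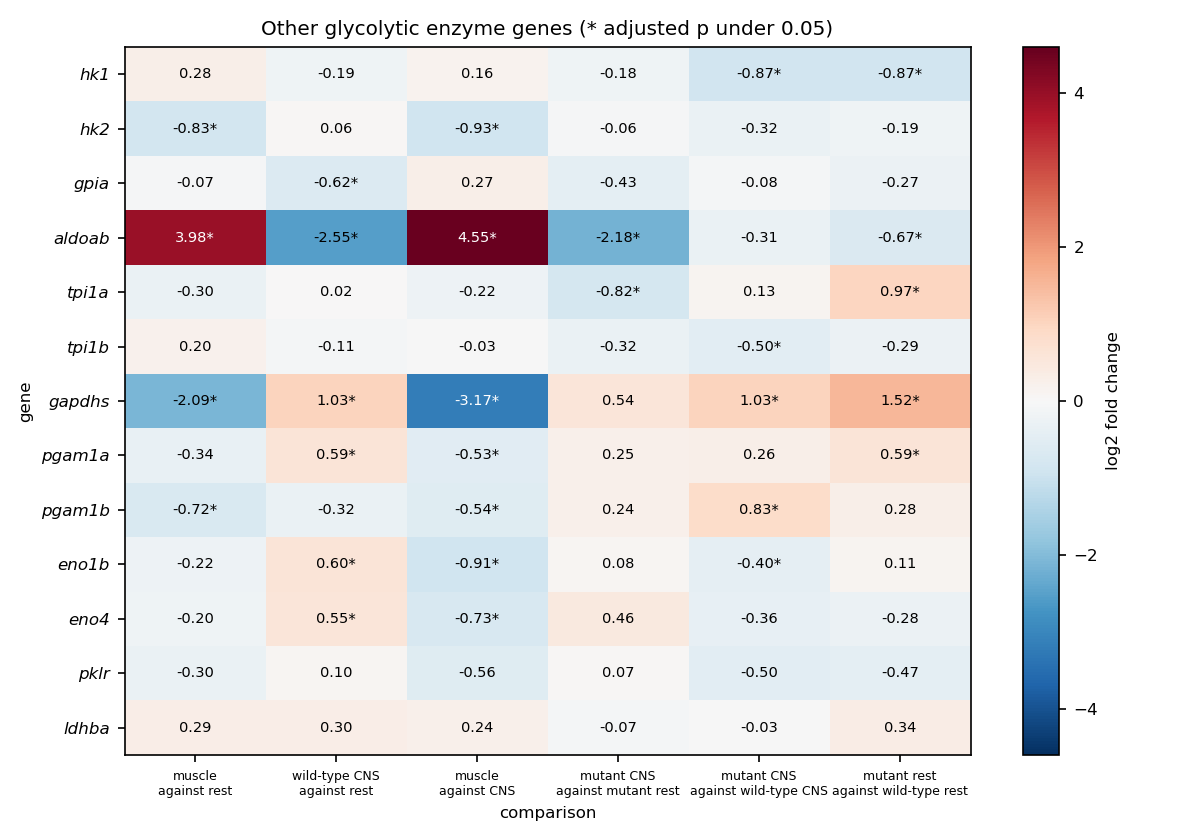
Log2 fold change of the 13 other glycolytic enzyme genes that passed the filter, in 6 comparisons, with each value printed in its cell and an asterisk where the adjusted p was under 0.05. The rows of aldoab (3.98 in muscle against rest) and gapdhs (-2.09) hold the widest colours.

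The enzymes that set the level of fructose 2,6-bisphosphate, an activator of phosphofructokinase, were divided as well. Of 4 that passed the filter, pfkfb1 was higher in muscle cells than in their rest (log2 1.11), and pfkfb3 (-1.99) and pfkfb4b (-1.01) were lower. In the mutant rest pfkfb1 (0.70), pfkfb4b (1.20) and tigarb (1.16) were higher than in the wild type, 3 of 4 genes. In mutant CNS cells 3 were higher and 1 was lower than in wild-type CNS cells. With 4 genes the counts are a description, beside 34.3%, 33.9% and 33.3% of all probe sets called.

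For each of the 9 genes, the 3 genes with the most similar pattern were found among 6405 other genes, by Pearson's r of log2 values over the 18 arrays. Those for gapdh were timm13 (0.968), cycsb (0.957) and srprb (0.954). Those for pkma were pcm1 (0.986), rtn1a (0.981) and ccdc88c (0.977), and those for aldocb were lgi1a (0.979), coro1b (0.968) and pou3f3a (0.966). For pgk1 they were pdia6 (0.954), pdia4 (0.942) and cptp (0.939). For aldoaa they were eef2b (0.933), rps6 (0.930) and xpnpep1 (0.925), and for pgam2 bmpr1ba (0.921), them6 (0.910) and mrpl47 (0.900). The likeness was weaker for ldha, with brd8b (0.905), mob1ba (0.893) and hnrnpd (0.891), for eno3, with hibadha (0.871), hoxb3a (0.868) and ckba (0.865), and for eno1a, with ppifa (0.845), bmpr1ba (0.833) and nif3l1 (0.829). These values describe arrays that share their groups and scaling, and pgam2 was dim on all arrays outside muscle.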

How the data were processed

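The deposited values are intensity on a linear scale, 1 per probe set and array. The authors used Affymetrix arrays, and the submitters' processing notes name MAS5. Per the labels, 100 ng of total RNA was labelled for each array. The version, detection calls and genome build were not given in the sources used here, so no coordinates are printed. The values show that each array was scaled to the same 2% trimmed mean (150.03 to 150.04), so a change in total RNA per cell cannot be seen. Depth does not apply, and precision is limited by the number of arrays.

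Of 15617 probe sets, 115 controls were left out, 10704 passed the filter, and 10795 had 1 gene symbol in the platform annotation. Values were analysed as log2(intensity + 16) with limma 3.58.1 in R 4.3.3, with 1 mean per group over all 18 arrays, 12 residual degrees of freedom and an intensity trend. The two-sided p-values were adjusted with the Benjamini-Hochberg method over all 10704 within each of 8 comparisons. An exact permutation test of 3 against 3 arrays cannot go below 0.1 and was not used. The fit was tested on simulated data. Figures were drawn with matplotlib 3.10.9 in Python 3.11.15.

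The 9 genes, the gene lists and the tests were chosen with earlier results of these data known. Besides the 9 genes and their 3 most similar genes, up to 4 genes per list and direction with the smallest adjusted p could be named, the most similar gene being the one with the highest r. Where a gene of a list had several probe sets, the brightest stood for it. Residuals of fractions with the same replicate number correlated most in the miR-206 line (r = 0.358, 0.363 and 0.202). They gave 0.104, 0.272 and 0.290 in the mutant line, and 0.191, 0.003 and -0.114 in the wild-type miR-124 line. Across lines, the rests of the wild-type lines gave 0.159, 0.018 and 0.290, and the other comparisons lay between -0.04 and 0.17. Pairing in the mutant line is thus not set apart from the values across lines. Alternatives were 2 other pseudocounts (1 and 64), other filters, median centring, quantile normalization, array weights, no intensity trend, 1 probe set per gene, only the groups compared, a replicate block, and each array left out.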

Additional observations from a re-analysis of the deposited data

Results flagged for a closer look

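The contrast between sorted and other cells differed between the miR-206 line and the wild-type miR-124 line. The difference of the 2 contrasts was added after the data were seen, and it is built from the same 4 groups as the comparisons above. With pgam2 left out, 6 of 9 probe sets passed, against 33.1% of all probe sets. They include both probe sets of aldocb, and the direction of the dimmer one was partly built into its passing the filter. The log2 difference was 2.47 for gapdh (SE 0.34, adjusted p = 7.55e-06), 1.04 for eno3 (SE 0.28, adjusted p = 0.0061) and 0.78 for eno1a (SE 0.26, adjusted p = 0.0287), all toward muscle. It was -2.99 for the brighter aldocb probe set (SE 0.29, adjusted p = 5.48e-08), -0.70 for the dimmer one (SE 0.26, adjusted p = 0.0462) and -1.91 for pkma (SE 0.19, adjusted p = 6.22e-08), toward CNS. Without 1 array the eno1a value was called in 5 of 12 fits and that of the dimmer aldocb probe set in 4 of 12, and gapdh, eno3, pkma and the brighter aldocb probe set stayed past the threshold in all 12. The difference for pgam2 was 1.44, as a description, since it passed the filter only through the muscle arrays. For ldha the difference was -1.10 (adjusted p = 0.0543). It passed with a replicate block (0.0405), array weights (0.00956), median centring (0.04) and quantile normalization (0.0438). Without 1 array it passed in 4 of 12 fits, those without replicate 1 of the rest or replicate 2 of muscle in the miR-206 line, or replicate 3 of either fraction of the miR-124 line (0.00465 to 0.0289).

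Of the array's own GAPDH control probe sets, which the comparisons leave out, those for the 3' end and the middle differed between groups. The control for the 3' end had a mean intensity of 733 in mutant CNS cells (733.4 ± 130.0, SD, n = 3), 368 in wild-type CNS cells and 23.8 in muscle cells. The middle one had means of 258.5, 174 and 18.1. The control for the 5' end differed little, with means of 70.5, 72.0 and 58.5 and a correlation of 0.349 with gapdhs. Over the 18 arrays the 3' control correlated with gapdhs at r = 0.994 and with gapdh at -0.946, as a description. The middle control gave 0.982 and -0.929. Both thus followed gapdhs and ran opposite to gapdh, and which transcript they read was not tested.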

How the results depend on the processing

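No called value of the 9 genes changed its sign under any alternative run. Between mutant CNS cells and mutant rest, quantile normalization left 2 of 10 probe sets called in place of 4, as gapdh and eno3 lost their calls. Without 1 array at a time, the number called was 4 to 7 for muscle against rest, 3 to 4 for wild-type CNS against rest, 2 to 3 for mutant CNS against mutant rest, 4 to 6 for muscle against CNS, 4 in each fit for mutant against wild-type CNS, 3 to 5 for mutant against wild-type rest, counting pgam2 wherever it passed the filter, and 0 in each fit for the interaction and for rest against rest. The ranges for the muscle comparisons include pgam2 in the fits that kept all muscle arrays. They thus cannot be set beside the muscle counts given earlier, which leave pgam2 out. A replicate block changed 1 call of the 9 genes in the planned comparisons, that of the dimmer aldocb probe set in muscle (adjusted p = 0.0359). Over all probe sets, it moved the interaction count from 244 to 367. That count was 154 with a pseudocount of 1 and 139 to 157 without replicate 1 of wild-type CNS cells, replicate 1 of mutant CNS cells or replicate 1 or 3 of the mutant rest. Array weights moved the count for mutant CNS against rest from 1593 to 2628, and that for rest against rest from 623 to 379. The latter was 190 with only these groups in the fit and 363 without replicate 1 of the miR-206 rest. Centring arrays on their medians moved the median of all probe sets from -0.05 to 0.14 in muscle against rest, from 0.03 to 0.18 in wild-type CNS against rest and from -0.06 to 0.06 in muscle against CNS. The share of higher calls then went from 36.5% to 60.0%, from 45.1% to 63.3% and from 41.0% to 53.3%, and from 54.3% to 43.9% for mutant against wild-type CNS and from 37.4% to 53.0% for rest against rest. With quantile normalization it was 47.7% for muscle against rest. The causes were not tested. Dim levels limit the folds of aldocb and pgam2 in particular, and that of gapdh in mutant CNS cells.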

Other observations

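A list of genes of the phosphocreatine system, which buffers ATP in muscle, and an adenylate kinase gene also differed between the groups. Of 8 tested, 6 were higher in muscle cells than in their rest and 1 was lower, with a median log2 difference of 1.91 beside -0.05 over all probe sets, of which 12.5% were higher and 21.8% lower. The muscle kinases ckma (3.59) and ckmb (4.28) and the adenylate kinase ak1 (3.40) were higher. The brain-type kinase ckbb was lower (-1.74), while the other brain-type gene, ckba, was not called lower. In wild-type and in mutant CNS cells 6 of 8 were lower than in the rest, beside 17.4% and 8.57% of all probe sets. In the mutant rest 5 were lower and 1 was higher than in the wild-type rest (16.8% and 17.0% of all). Between the wild-type rests, where 5.82% of all passed, 4 were lower in the miR-206 line, among them ckmb (-2.38) and ckma (-1.60).

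Of 10 genes of the response to low oxygen that passed the filter, 5 were higher and 2 lower in mutant than in wild-type CNS cells, with a median of 0.52 beside 0.01 over all probe sets, of which 18.1% were higher and 15.2% lower. The hydroxylase gene p4ha1b (1.37) and epas1a (1.13) were higher, and igfbp1a (-1.14) and vegfaa (-0.71) were lower, the latter with an adjusted p of 0.0544 without replicate 1 of wild-type CNS cells and 0.0613 without replicate 3 of mutant CNS cells. In muscle cells against their rest 2 were higher and 4 lower, and the shares of all probe sets given above for muscle, 12.5% and 21.8%, are the background for the lists that follow. Of 5 genes of the pentose phosphate pathway, 3 were lower in muscle cells, among them pgd (-0.79). In mutant against wild-type CNS cells 3 of the 5 were lower, among them taldo1 and tktb (-0.77 each). There 1 was higher, pgls (0.65), beside the 15.2% lower and 18.1% higher of all probe sets. Of 5 glycogen genes in muscle cells, gyg1a (1.08) and pygmb (0.56) were higher and 3 were lower. The pygmb call was lost without replicate 1 or 2 of the rest or replicate 3 of muscle (adjusted p 0.087 to 0.308). Of 6 pyruvate dehydrogenase genes, 1 was higher in muscle cells, pdp2 (0.73), a call lost without replicate 2 of the rest (adjusted p = 0.154) or replicate 3 of muscle (0.0643). Of 4 sugar and lactate carriers, slc2a3a was higher there (0.61), a call lost without replicate 1 of the rest (adjusted p = 0.0756) or replicate 2 of muscle (0.058). Of 2 gluconeogenic genes, fbp1a was lower in muscle cells (-0.90).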
